A study of Mus musculus with 12 samples.

Results

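The imprinted genes H19, Igf2, Meg3, Rian, Mirg, Dlk1, Peg3, Cdkn1c, Plagl1 and Grb10 were followed through liver cells sorted by the brightness of a Sox9 reporter. They were taken by symbol and are 10 of the 54227 genes in the table. All cells came from C57Bl/6 mice carrying the Sox9EGFP transgene, in which EGFP reports on the biliary transcription factor Sox9. The mice were fasted for 16 h, the livers were digested to single cells, and 12000 cells per population were sorted into EGFP-negative (neg), sublow (sub), low and high gates, with 3 libraries of total RNA each. The neg gate is defined only by lack of the reporter, so it is a mixture of cell types, and the labels used here give no age or sex, no treatment besides the fast, and do not say whether libraries came from separate animals. Libraries with the same replicate number carry a shared tag in their labels across the 4 gates, whose meaning is not stated. The p-values therefore measure only the spread between these libraries, which may be technical.

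Imprinted genes are expressed mainly from the copy inherited from a single parent, because DNA methylation laid down in the egg or the sperm marks the copies differently. Many of them control growth before and after birth, and several are strongly expressed in fetal liver and shut down soon after birth. Igf2, Dlk1, Peg3 and Plagl1 are known as paternally expressed genes, and H19, Meg3, Rian, Mirg and Cdkn1c as maternally expressed genes. Grb10 is maternally expressed in most tissues outside neurons. The values sum over both alleles, so they give levels of RNA and say nothing about parental origin.

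The promoters are shown for 4 members whose levels differ most in kind, namely Peg3 (the highest member per kilobase in sub, low and high), Meg3 and Rian (neighbours on the same locus whose ratio varied between libraries) and Dlk1 (the undetected neighbour of Meg3). Each is a window of 300 bases, from 250 before to 50 after the annotated start, written 5′ to 3′ on the gene's strand, from RefSeq (GRCm38.p6). Capitals mark the hexamer TGCCGC, read as GCGGCA on the other strand, which is the core of the methylated site bound by the imprint keeper ZFP57, and the TATA box TATAAA, read as TTTATA on the other strand.
Peg3, chr7:6730370-6730669, minus strand: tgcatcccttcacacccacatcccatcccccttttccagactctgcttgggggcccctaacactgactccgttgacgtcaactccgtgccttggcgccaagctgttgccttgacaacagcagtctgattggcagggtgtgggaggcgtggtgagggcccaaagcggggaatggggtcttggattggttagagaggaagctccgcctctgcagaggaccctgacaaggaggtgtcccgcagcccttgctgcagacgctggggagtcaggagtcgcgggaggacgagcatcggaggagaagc
Meg3, chr12:109540746-109541045, plus strand: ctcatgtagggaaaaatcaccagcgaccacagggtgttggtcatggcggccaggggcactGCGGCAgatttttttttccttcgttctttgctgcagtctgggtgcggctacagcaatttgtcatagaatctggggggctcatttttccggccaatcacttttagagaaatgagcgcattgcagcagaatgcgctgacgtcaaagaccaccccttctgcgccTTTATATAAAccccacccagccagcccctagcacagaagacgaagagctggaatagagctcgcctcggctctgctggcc
Rian, chr12:109603695-109603994, plus strand: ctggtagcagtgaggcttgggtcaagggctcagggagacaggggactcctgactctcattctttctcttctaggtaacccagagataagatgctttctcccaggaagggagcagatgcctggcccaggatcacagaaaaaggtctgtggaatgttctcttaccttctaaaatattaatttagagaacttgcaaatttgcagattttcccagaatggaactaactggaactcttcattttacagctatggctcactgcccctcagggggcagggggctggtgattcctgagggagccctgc
Dlk1, chr12:109452573-109452872, plus strand: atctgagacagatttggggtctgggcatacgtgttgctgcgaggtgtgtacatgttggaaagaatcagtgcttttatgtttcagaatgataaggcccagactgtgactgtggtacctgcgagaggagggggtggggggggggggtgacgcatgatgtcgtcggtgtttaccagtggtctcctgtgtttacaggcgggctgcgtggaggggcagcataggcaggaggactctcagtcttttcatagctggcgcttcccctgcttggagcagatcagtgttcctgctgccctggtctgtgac
The Meg3 window held the ZFP57 hexamer 190 bases upstream of the start and 2 overlapping TATA box matches, 25 and 29 bases upstream on opposite strands. The Peg3, Rian and Dlk1 windows held neither motif. Windows were found for 8 of the 10 members, 13 windows in all. Besides Meg3, the hexamer was in a single window each of Plagl1 (90 bases upstream), Igf2 and Grb10 (30 and 24 bases into the transcript). Of all 32851 RefSeq windows of this length, 11.6% held the hexamer and 13.6% the TATA box. The core of the YY1 site, GCCATNTT on either strand, which is known from repeats in the first intron of Peg3, was in no member window and in 6.05% of all windows. The Peg3 and Meg3 windows each held 13 CG dinucleotides, Dlk1 held 9 and Rian held 0, where the median of all windows was 7. These matches describe letters only.

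Recovered depth was 8775387 to 15535588 reads per library. Values are normalised counts, that is reads divided by 1 factor per library. Summed biliary markers were 22.2 to 412.5 in neg, 19824 to 36380 in sub, 68104 to 92644 in low and 63042 to 68775 in high. The biliary markers Epcam, Spp1, Cftr, Pkhd1 and Cldn4 were at 0 in all neg libraries. Summed endothelial markers ran the other way, 100343 to 148843 in neg, 31323 to 38128 in sub, 756.1 to 2218 in low and 555.4 to 899.1 in high. Stellate and fibroblast markers were 23710 to 40703 in neg and 27365 to 40676 in sub, against 190.7 to 1808 in low and 160.9 to 1002 in high. Hepatocyte markers, 395 to 793.2 in neg, stayed between 4841 and 8109 in sub, 14729 and 22209 in low and 18248 and 22570 in high, so neg held little hepatocyte RNA although the cells are labelled as liver cells. These are bulk samples, in which fewer cells of a type and less RNA per cell cannot be told apart. Single libraries at 0 were common: of 38456 pairs of a population and a gene with a mean of at least 100, 11424 (29.7%) had a library at 0 beside another of at least 100. Folds given below as at least a value therefore allow for counting error only, not for such zeros.

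Of the members, 8 passed the filter of a mean normalised count of at least 10, and Dlk1 and Mirg were at 0 in all 12 libraries. Across the 4 populations 2 of the 8, Peg3 and Meg3, passed an adjusted p of 0.05 (limma F test, Benjamini-Hochberg over 16128 genes), where 4.23% of all tested genes did. The F test of Peg3 (0.00129) was lost without the variance trend (0.58) and in DESeq2 on 10 libraries (0.0936), which called Cdkn1c, Meg3 and Rian. Peg3 was the member that was higher in cells carrying the reporter. Among the maternally expressed long RNAs, H19 had at most 1 read in any low or high library, Rian was at most 16.4 there, and Meg3 was at 0 in high and at 31.2, 254.0 and 0 in low. Plagl1 and Grb10 were present in every library. The plot of normalised counts by library shows these patterns.

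**Figure D1:**
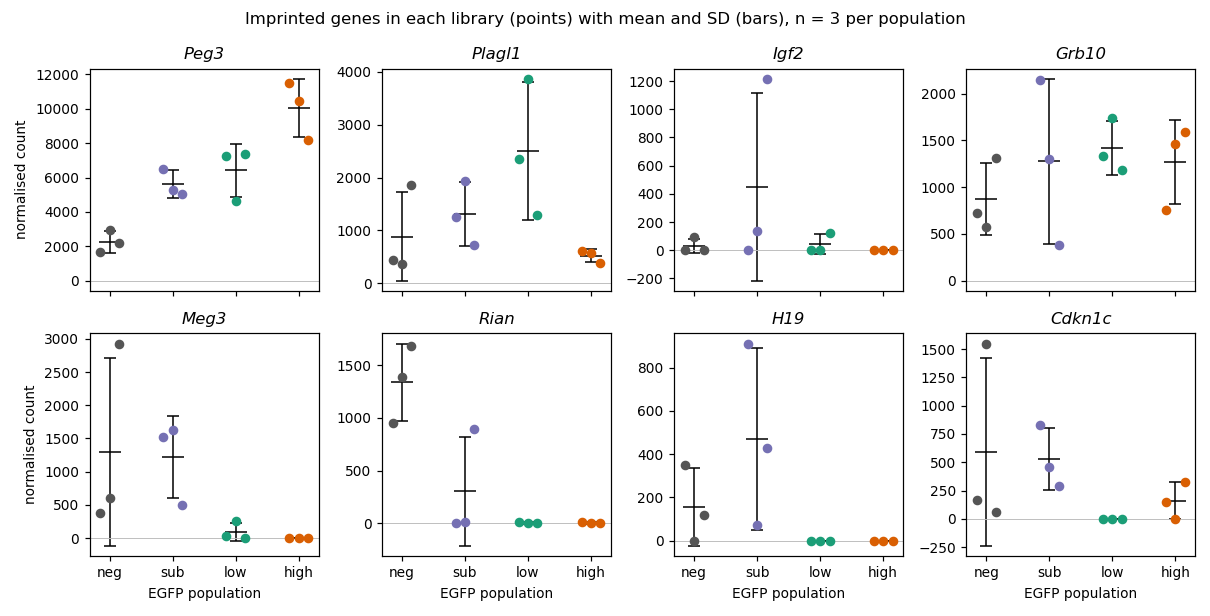
Normalised counts of the 8 detected members in each library of the neg, sub, low and high populations, 1 panel per gene on its own linear axis, with points for libraries and bars for mean and SD. Peg3 goes from 1665 to 2934 in neg to 8198 to 11497 in high, whereas Meg3 is at 0 in every high library.

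Peg3 encodes a zinc finger protein that binds DNA and restrains growth of some cells, and occupies bases 6703892 to 6730431 of chromosome 7, minus strand (protein coding, GRCm38, GENCODE M21, as are all positions of genes here). Normalised counts were 1665, 2934 and 2217 in neg libraries, 6521, 5284 and 5023 in sub libraries, 7227, 4631 and 7384 in low libraries, and 11497, 10475 and 8198 in high libraries. Every library of an EGFP-positive gate lay above every neg library, and every high library above all sub and low libraries. From neg through sub and low to high the means were 2272 ± 636, 5609 ± 800, 6414 ± 1546 and 10057 ± 1689 (SD, n = 3 each). Peg3 was higher in high than in neg by a log2 difference of 2.17 ± 0.31 (SE), 4.43 times on the means, with an adjusted p of 0.000194 (limma), and every alternative but 1 (no variance trend, adjusted p 0.251) kept the call. It was higher in low than in neg by 1.50 ± 0.31 (2.82 times, adjusted p 0.00695), a call lost when the variance trend was dropped (0.49), in a fit of only the 2 populations (0.0781) and in DESeq2 on 10 libraries (0.0508).

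The step from neg to sub was 1.33 ± 0.31 for Peg3 (2.47 times, adjusted p 0.0383 in limma). It is the least secure of the 3: only 6 of 24 alternatives kept it, with adjusted p between 0.0189 and 0.708. Leaving out neg 2 (0.0189) or low 2 kept the call. Leaving out any other library lost it, with adjusted p of 0.0988 and 0.0675 for neg 1 and 3, 0.142, 0.0871 and 0.0713 for sub 1, 2 and 3, 0.0694 and 0.0605 for low 1 and 3, and 0.082, 0.0807 and 0.0627 for high 1, 2 and 3. High was 1.79 times sub (log2 difference 0.84 ± 0.31, adjusted p 0.309, p 0.0146 before adjustment in limma) and 1.57 times low (0.67 ± 0.31, adjusted p 1, p 0.0457 before adjustment), so neither difference passed although the libraries did not overlap. Low and sub did not differ beyond their spread (0.17 ± 0.31, adjusted p 0.914). The summed biliary markers were higher in the EGFP-positive gates together with Peg3, and within those gates Peg3 was highest in high, while the mean biliary sum was highest in low, with low and high overlapping (68104 in low 1 and 68775 in high 3). Of single biliary markers Sox9, Pkhd1 and Cftr ran in the same order as Peg3 from sub to high on average (4865, 12097 and 13087 for Sox9). The summed hepatocyte markers, 601.5, 6890, 17244 and 21039 on average from neg to high, ran in the same order as Peg3, carried mainly by Alb and Ahsg. Apoa1 ran the other way (410.8 in neg and 53.5 in high on average), and Serpina1a, Cps1 and Cyp3a11 were at 0 in high. The part of either cell type in the Peg3 result was not tested.

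Plagl1, also called Zac1, encodes a zinc finger transcription factor that acts on cell cycle arrest and on other imprinted genes, and occupies bases 13060504 to 13131694 of chromosome 10, plus strand. Libraries gave normalised counts of 435.3, 363.2 and 1850 in neg, 1259, 1935 and 728.1 in sub, 2357, 3872 and 1284 in low, and 599.7, 570.0 and 373.2 in high. All 3 low libraries lay above all 3 high libraries, by 4.87 times on the means (2504 ± 1300 against 514 ± 123, SD, n = 3). The log2 difference of high from low was -2.17 ± 0.85 with an adjusted p of 1 (p 0.0194 before adjustment, limma), so the difference did not pass. All sub libraries also lay above all high libraries (log2 difference of high from sub -1.26 ± 0.85, adjusted p 0.679). Low against neg gave 1.77 ± 0.85 (adjusted p 0.314), with the neg library of 1850 inside the range of low. In order of the means Plagl1 ran low, sub, neg and high, and no neighbours in that order differed past the threshold.

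Igf2 encodes a fetal growth factor that acts through the insulin and IGF1 receptors, and occupies bases 142650766 to 142666816 of chromosome 7, minus strand. It was above 0 in only 4 of the 12 libraries: 90.5 in neg 2, 134.0 and 1217 in sub 2 and sub 3, and 124.9 in low 3. All high libraries were at 0, and the libraries of the populations overlapped. High was at least 148-fold below the sub mean of 450.3 ± 667 (SD, n = 3), counting the floor as 3 reads per library, but with a log2 difference of -5.78 ± 2.87 and an adjusted p of 0.5 (limma) this did not pass. The limit rests on sub 3 and is 22.1-fold without it, and the log2 difference ranged from -8.66 to -3.54 with a library left out. Sub against neg gave 3.60 ± 2.87 (adjusted p 0.711). Igf2os, the antisense gene of Igf2, was above 0 only in low 1 (153.6) and high 1 (160.9). Whether strand was used in counting is not given in the sources used here, so reads of the pair may not be told apart.

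Dlk1 encodes a membrane protein of the Notch ligand family that marks fetal hepatoblasts. It occupies bases 109452823 to 109463336 of chromosome 12, plus strand, 77665 bases before Meg3, and was at 0 in all 12 libraries. The floor of 3 reads corresponds to at most 3.67 normalised counts in these libraries, which covers counting error only. Levels below it could be missed at this depth. Other genes were often at 0 in a library beside at least 100 in another, so values of 0 do not limit the level to that floor.

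Meg3 is the first of the maternally expressed long RNAs that follow Dlk1 on chromosome 12, a lincRNA at bases 109541001 to 109571726, plus strand. Its normalised count was 372.4, 602.9 and 2929 in neg, 1520, 1626 and 504.7 in sub, 31.2, 254.0 and 0 in low, and 0 in all 3 high libraries. Neg and sub overlapped, low lay below both, and high had no read at all. Means were 1302 ± 1414 in neg, 1217 ± 619 in sub and 95.1 ± 139 in low (SD, n = 3 each). Meg3 fell in high relative to neg, at least 429-fold against the floor of 3 reads per library (log2 difference -9.77 ± 2.28, adjusted p 0.0156, limma). This call was kept in 22 of 24 alternatives, and was lost without neg 3 (0.0763), where the limit is 161-fold, and in limma on the 10 libraries used for count tests (0.0628).

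Meg3 was also lower in high than in sub, at least 401-fold (log2 difference -10.07 ± 2.28, adjusted p 0.0382, limma), a call that 11 of 24 alternatives kept. Leaving out a low library kept it, and leaving out any neg, sub or high library lost it, with adjusted p of 0.0627, 0.0619 and 0.0628 without neg 1, 2 and 3, 0.111, 0.153 and 0.0968 without sub 1, 2 and 3, and 0.0914, 0.0884 and 0.0872 without high 1, 2 and 3. The log2 difference stayed between -10.62 and -9.78 in these fits. The call was also lost with quantile normalisation (adjusted p 0.0544), only the 2 populations (0.119), limma on 10 libraries (0.187) and a replicate block (0.0534). Low lay 13.7 times below neg and 12.8 times below sub without overlap, and neither passed (log2 differences -5.43 ± 2.28 and -5.74 ± 2.28, adjusted p 0.228 and 0.362). Without low 2 these ratios are 83.5 and 78.1, and without neg 3 the first is 5.13. Sub and neg did not differ beyond their spread (0.31 ± 2.28, adjusted p 1), and the sign changed to -0.30 without neg 1. The F test of Meg3 (adjusted p 0.0222) was lost without neg 2 (0.0517), neg 3 (0.0676), sub 1 (0.0535), sub 2 (0.0551) or high 1, 2 or 3 (0.0602, 0.06 and 0.0578), and in limma on 10 libraries (0.0983).

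Rian, which lies 32214 bases after Meg3 and hosts small nucleolar RNAs, occupies bases 109603940 to 109661716, plus strand (processed transcript). Normalised counts of Rian were 950.7, 1388 and 1680 in neg, 1.5 (2 reads), 9.2 and 895.7 in sub, 16.3, 0 and 0 in low, and 16.4, 0 and 0 in high. All neg libraries lay above all others, and within sub a single library, sub 3, held nearly all the signal. Low was 246 times and high 244 times below neg on the means (log2 differences -8.98 ± 2.67 and -8.97 ± 2.67), with adjusted p of 0.0616 and 0.0621 (limma), just outside the threshold. Each ratio rests on a single library with reads, low 1 or high 1, without which the population is at 0. Leaving out sub 3 brought both inside (0.0392 and 0.0397), as did 5 and 6 other alternatives. Sub against neg was -5.53 ± 2.67 (4.43 times lower, 252 times without sub 3, adjusted p 0.528), and of 24 alternatives only DESeq2 on 10 libraries called it (0.00335). Neither edgeR nor limma on the same 10 libraries called it, and limma without sub 3 alone gave 0.246.

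Meg3 and Rian did not keep a common ratio. Rian made up 71.9%, 69.7% and 36.4% of their summed normalised counts in neg 1, 2 and 3, and 0.0969%, 0.560% and 64.0% in sub 1, 2 and 3. The sub libraries with much Meg3 (1520 and 1626) were thus those with almost no Rian. Mirg, the last long RNA of the cluster and host of many microRNAs (chromosome 12, 109729764 to 109749460, plus strand), lies 68048 bases after Rian and was at 0 in all libraries. The 49 annotated small RNA genes listed for these loci were all at 0 too, in libraries that were not made for small RNA.

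H19 is a long RNA that lies 72623 bases from Igf2 and shares its enhancers, at bases 142575529 to 142578143 of chromosome 7, minus strand (lincRNA). Normalised counts of H19 were 352.4, 0 and 117.8 in neg, 911.6, 71.0 and 428.9 in sub, 0 in all low libraries, and 0, 0 and 0.8 (1 read) in high. Sub was the only population with H19 in every library, and all its libraries lay above all low and high libraries. Relative to sub, H19 was at least 185-fold lower in low and at least 155-fold lower in high (log2 differences -8.25 ± 2.55 and -7.96 ± 2.55), with adjusted p of 0.171 and 0.183 (limma), so neither passed. Without sub 1 the limits are 98.1-fold and 82.4-fold. DESeq2 on 10 libraries called both (0.00232 and 0.0298), whereas edgeR on the same libraries gave adjusted p of 0.5 and 0.755. Sub and neg overlapped (3.13 ± 2.55, adjusted p 0.718). Sub 1 had the most H19 (911.6) and no Igf2, and sub 3, with the most Igf2 (1217), had the H19 value of 428.9.

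Cdkn1c encodes p57Kip2, an inhibitor of cyclin-dependent kinases, and occupies bases 143458339 to 143461050 of chromosome 7, minus strand (protein coding). Its normalised count was 167.9, 1549 and 61.8 in neg, 825.4, 462.5 and 294.3 in sub, 0 in all low libraries, and 151.4, 0 and 327.5 in high. The low gate was the only population without any read, and low libraries lay below all neg and sub libraries. Relative to neg Cdkn1c was at least 233-fold lower in low (log2 difference -7.99 ± 2.49, adjusted p 0.0763, limma) and relative to sub at least 207-fold lower (-8.92 ± 2.49, adjusted p 0.119). The first limit rests on neg 2 and is 45.1-fold without it (adjusted p 0.251). The first passed in 4 of 24 alternatives, among them edgeR (0.0237) and DESeq2 (1.61e-08) on 10 libraries and limma without high 2 (0.0403). High, where 2 of 3 libraries held reads, overlapped low (5.20 ± 2.49, adjusted p 1). Across the 4 populations Cdkn1c had an adjusted p of 0.122.

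Grb10 encodes an adaptor that binds the insulin and IGF1 receptors and dampens their signal, and occupies bases 11930508 to 12038683 of chromosome 11, minus strand. Its normalised count was 723.4, 579.7 and 1309 in neg, 2148, 1299 and 386.0 in sub, 1332, 1740 and 1183 in low, and 759.8, 1463 and 1594 in high. The populations overlapped throughout, and means ran from 871 ± 386 in neg to 1418 ± 288.5 in low (SD, n = 3). The largest log2 difference was low against neg, 0.77 ± 0.79 (adjusted p 0.67, limma), and the F test gave an adjusted p of 0.871.

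On average, summed endothelial, stellate and smooth muscle markers were lower in low and high than in neg and sub. So were Meg3, Rian and H19. This held less closely for Cdkn1c, which had reads in 2 high libraries. From neg to sub the mean endothelial sum went from 124692 to 34083, and Rian from 1339 to 302.1. Meg3 averaged 1302 in neg and 1217 in sub, and H19 156.7 and 470.5. Mean stellate sums were 30814 in neg and 32001 in sub, and smooth muscle sums 8266 and 10913. Not every smooth muscle marker followed the sum, as given below. In low and high, where Meg3 averaged 95.1 and 0 and Rian and H19 were lowest, the summed endothelial and stellate markers were lowest too. There 8 or 9 of the 10 endothelial markers and 6 or 8 of the 10 stellate and fibroblast markers were still above 0, the stellate genes Lrat and Colec11 being at 0 in both. Smooth muscle and pericyte sums, 3882 to 11412 in neg and 7849 to 13125 in sub, were 396.8 to 2217 in low and 706.5 to 1402 in high. Myh11 carried much of them in neg and sub (6048 and 5989 on average, 393.7 in low and 222.1 in high). Rgs5 averaged 829, 1783, 844.6 and 572.6 from neg to high, and Cnn1 140.5, 0, 146.4 and 67.6. In low against neg 5 of the 6 had a negative log2 difference and 1 a positive one. Limma called 0 of them there and 1 (Acta2, lower) in high against neg, beside 4.69% of all genes in each. Kupffer and macrophage sums were 0 to 986.6 in neg, 490 to 574.5 in sub, 742.9 to 1133 in low and 518.6 to 1348 in high, with 3 to 6 of 8 markers at 0 in a population. Of these markers limma called Csf1r, the receptor of the macrophage growth factor CSF1, higher in low and in high than in neg, with 0 in all neg libraries and means of 872.5 in low and 729 in high, which carried most of the mean sums there (896.7 and 867.2). The macrophage marker Cd68 averaged 198.5, 344.2, 24.2 and 79.6 from neg to high, with a library at 0 in each population, and C1qb 143.7, 53.3, 0 and 0. Mesothelial sums overlapped between neg (250.8 to 1732) and high (604.4 to 1348), where Gpm6a alone averaged 995.3 of 995.6, Msln 0.29, and Upk3b and Wt1 were at 0. The part of these cell types in the results was not tested. Within sub, Meg3 was highest where endothelial markers were highest (sub 2, 38128) and Rian where stellate markers were highest (sub 3, 40676). Within neg, both were highest in neg 3, which had the lowest endothelial sum (100343) and the highest stellate sum (40703). Rian was 1.5 and 9.2 in sub 1 and sub 2, whose stellate sums (27365 and 27962) lay within the range of neg, where Rian was at least 950.7. H19 was highest in neg 1 (352.4) and sub 1 (911.6), which had the lowest stellate sums (23710 and 27365) and the lowest smooth muscle sums (3882 and 7849) of their populations, and lowest in neg 2 (0) and sub 2 (71), whose sums lay between those of the other libraries.

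**Figure D2:**
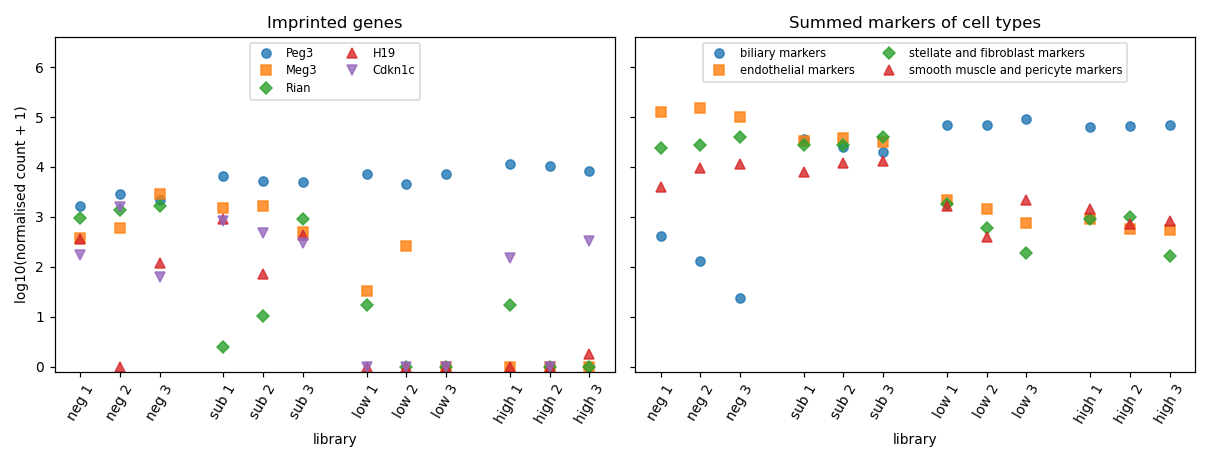
Log10(normalised count + 1) of Peg3, Meg3, Rian, H19 and Cdkn1c and of the summed biliary, endothelial, stellate and fibroblast, and smooth muscle markers in each of the 12 libraries, with populations side by side. The endothelial and stellate sums drop from sub to low, where Meg3 goes from 1217 to 95.1 on average and H19 reaches 0.

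In sub against neg 1 of 8 passed (Peg3), where 1.19% of all tested genes did, and in low against neg 1 of 8 (Peg3), where 4.69% did. In high against neg 2 of 8 passed (Peg3 higher, Meg3 lower) against 4.69% of all genes, and in high against sub 1 of 8 (Meg3 lower) against 0.986%. In low against sub 0 of 8 passed (0.744% of all genes), with 3 members (H19, Meg3 and Cdkn1c) and 10.15% of all genes at an unadjusted p under 0.05 in limma. On 10 libraries edgeR called 271 genes and 0 members there. DESeq2 called 2 members (H19 and Cdkn1c) in low against sub, where it called 12.8% of all genes with an adjusted p. In high against low 0 of 8 passed, as did 0% of all genes in limma, with 2 members (Peg3 and Plagl1) and 684 genes (4.24%) at an unadjusted p under 0.05. On 10 libraries edgeR called 74 genes and 0 members there. DESeq2 called 678 genes (5.79% of those with an adjusted p) and 2 members (Meg3 and Cdkn1c). These 10 libraries leave out high 2, the only high library with Cdkn1c at 0. Libraries did not overlap for 2 members in sub against neg (9.68% of all genes), 4 in low against neg (16.9%), 3 in high against neg (18.8%), 3 in low against sub (11.7%), 4 in high against sub (13.1%) and 2 in high against low (7.34%). The contrasts share populations, so their counts are not independent. The median log2 difference of the tested members was 0.90 in sub against neg, -2.48 in low against neg and -2.48 in high against neg, where the medians of all tested genes were 0.00, 0.00 and 0.13. It was -3.45 in low against sub, -3.58 in high against sub and -0.10 in high against low, beside 0.00, 0.20 and 0.00 for all genes. Members went both ways in each contrast, with 4 positive and 4 negative in low against neg, so these medians describe no single member.

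**Figure D3:**
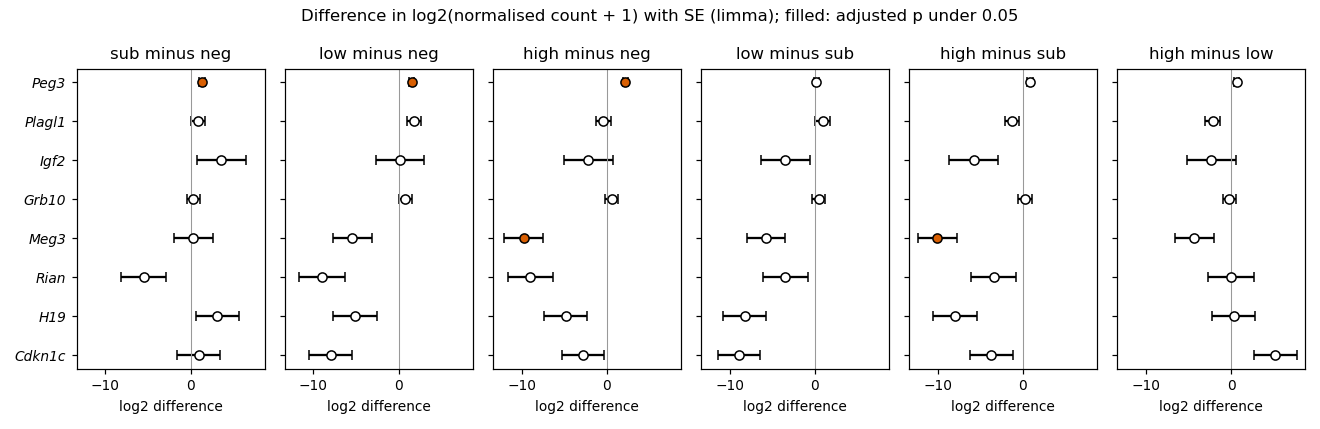
Log2 differences of the 8 detected members in the 6 pairwise contrasts, with bars of 1 SE, filled where the limma adjusted p was under 0.05. Peg3 lies above 0 in all 3 contrasts with neg and Meg3 below 0 in high against neg and in high against sub.

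Per length the order of levels differed between populations. In normalised counts per kilobase of exon (GENCODE M21), Peg3 was the highest member in sub, low and high, at 421, 481 and 755, and Cdkn1c had the highest mean in neg at 291 against 170.5 for Peg3. That mean rests on neg 2 (759.9 per kilobase), since in neg 1 and neg 3 Cdkn1c was at 82.3 and 30.3 and Peg3 at 125 and 166. In high, 97.4% of 15821 genes with a length lay below Peg3, and in neg 82.5% did. Per kilobase Rian exceeded Meg3 in neg 1 and 2 and lay below it in neg 3, and in sub it exceeded Meg3 only in sub 3. H19 in sub (191 per kilobase) exceeded Igf2 (78.7), with libraries that overlapped for these genes.

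Among the neighbours in the imprinted loci, Usp29, whose start is 147 bases from the Peg3 start on the other strand, was at 83.9 in high 2 and 0 elsewhere, and Zim1 on the other side of Peg3 was at 145.5 in low 1 only. Rtl1, which lies between Meg3 and Rian, stayed between 0 and 31.9, and Dio3, at the far end of that cluster, was at 83.1 in low 1 only. Kcnq1ot1, the paternally expressed antisense RNA of the Cdkn1c domain, was by contrast present in every library, between 2926 in sub 3 and 8630 in high 3, and passed in no contrast.

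Of 55 other imprinted genes listed, 54 were in the table, 14 were at 0 everywhere and 33 were tested. Slc38a4, a paternally expressed gene for an amino acid transporter (chromosome 15, 96994820 to 97055956, minus strand), was the only gene limma called, 1 of 33 in low against neg and in high against neg, below the 4.69% of all genes called there. DESeq2 on 10 libraries called 1 to 5 of the list per contrast, where it called 5.79% to 17.3% of all genes with an adjusted p. Normalised counts of Slc38a4 were 0 in all neg libraries, 137.1, 0 and 0 in sub, 847.5, 486.0 and 1221 in low and 1424, 863.1 and 599.5 in high. Every low and high library held it, and every neg library lacked it. Low exceeded neg at least 232-fold (log2 difference 9.64 ± 2.37, adjusted p 0.0224, limma) and high exceeded neg at least 262-fold (9.82 ± 2.37, adjusted p 0.0191). Leaving out low 1, 2 or 3 lost the first (0.0691, 0.0575 and 0.0853), and leaving out high 1, 2 or 3 the second (0.0881, 0.0728 and 0.0614). The first was also lost with only the 2 populations (0.0555) and the second in limma on 10 libraries (0.0643). Over the 33 genes the median log2 difference was 0.77 in low against neg and 1.05 in high against neg, against 0.00 and 0.13 over all genes.

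Of 8 genes of the IGF and insulin receptor axis 6 were tested, and Irs2, the adaptor that insulin and IGF1 receptors phosphorylate, was the only gene limma called, beside 4.69% of all genes in each of low and high against neg. Normalised counts of Irs2 were 106.4, 1178 and 522.5 in neg, 1959, 1977 and 2091 in sub, 1973, 2689 and 3036 in low and 2944, 3989 and 5104 in high. All EGFP-positive libraries lay above all neg libraries, with adjusted p of 0.0405 in low against neg (log2 difference 2.64 ± 0.72, limma), kept in 7 of 24 alternatives and in 1 of 12 fits that left a library out (without neg 2), and 0.0106 in high against neg (3.27 ± 0.72), lost without high 2 (0.0564) or high 3 (0.0732), with only the 2 populations (0.0844), in limma on 10 libraries (0.079) or when the variance trend was dropped (0.144). On the means Irs2 was 4.26 times neg in low and 6.66 times in high, and 8.16 and 12.8 times without neg 2. The mice had been fasted for 16 h in all populations. Of 12 genes that set or keep imprints 9 were tested, and 0 were called by limma, edgeR or DESeq2 in any contrast, with 0 at an unadjusted p under 0.05 in limma. Over all tested genes limma called 0% to 4.69% per contrast, and 4.24% to 16.4% were at an unadjusted p under 0.05 in limma. DESeq2 on 10 libraries called 5.79% to 17.3% of the genes to which it gave an adjusted p. These were fewer than the 16128 tested genes (11708 in high against low), so its shares and those of limma have unlike bases.

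The genes most alike each member over the 12 libraries were ranked by Pearson's r of log2(normalised count + 1) among 9613 other genes with a mean of at least 100. The libraries share populations, so these values describe likeness and carry no test. H19 was most like Hand2, Nxn and Mrc2 (r 0.986, 0.985 and 0.984), and Meg3 most like C7, Synm and Tek (0.975, 0.965 and 0.963). Rian was most like Lpar1, Mb21d2 and Adamts7 (0.935, 0.932 and 0.932), and Igf2 most like Cavin1, Dock9 and Gm2058 (0.883, 0.857 and 0.836). Peg3 was most like Tmc4, Nedd4l and Ttr (0.950, 0.945 and 0.945), and Cdkn1c most like Gm6136, Rbm28 and Gm45205 (0.946, 0.916 and 0.908). Plagl1 was most like Rbbp4, Rnf10 and Sh3pxd2a (0.843, 0.801 and 0.788), and Grb10 most like Cars, Prodh and Cd2bp2 (0.923, 0.895 and 0.886). Among the members, r over the 12 libraries ran from -0.752 for Rian and Peg3 to 0.700 for H19 and Meg3.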

How the data were processed

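Cells were sorted by FACS, RNA received DNase for 30 min, and libraries came from a SMARTer Pico v2 stranded total RNA kit, per the labels' protocols. The submitters' processing notes name mm10, Salmon and DESeq2 1.26.0. The authors deposited normalised counts (a signal for each gene in each library). In all 12 columns 100% of the values were whole multiples (tolerance 0.001) of the value of 1 read, so they were read as reads divided by a factor per library. Strand use and annotation are not given in the sources used here.

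Genes with a mean of at least 10 were tested with limma 3.58.1 (R 4.3.3) on log2(normalised count + 1) with a variance trend over all 12 libraries, two-sided, adjusted over 16128 genes (Benjamini-Hochberg, 0.05); differences understate changes of low genes. The floor was 3 reads per library. Folds against a population whose libraries all lay at or under it divide the other population's mean by that floor. They are lower bounds for counting error only. They do not allow for the spread of that mean, or for libraries at 0 beside others of at least 100, which were common. Count tests used edgeR 4.0.16 and DESeq2 1.42.0 on recovered reads of 10 libraries; sub 3 and high 2, where 1 read is worth about 1, were left out because a check of the unit did not accept them as recovered reads, although their values too were whole multiples. They called 255 (edgeR) and 1645 (DESeq2) genes in sub against neg. The alternatives were other pseudocounts, filters, scalings, fits and left-out libraries, on the same genes unless the filter was the choice. The tests were also run on simulated counts with the same spread setting for all genes. Those counts lack the frequent zeros of these libraries, so they do not show how the tests behave on genes with such zeros. Genes named from other lists are those past the threshold, and genes most alike a member are the 3 highest correlations. Positions are from GENCODE M21. The members, lists and tests were chosen with earlier results of these data known.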

Additional observations from a re-analysis of the deposited data

How the results depend on the processing

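The counts of calls and the gene differences were recomputed with a pseudocount of 0.5 or 5, without a filter, with a minimum mean of 100, with equal totals, quantile normalisation, a replicate block, no variance trend, only the 2 populations (contrasts alone, not the F test), edgeR and DESeq2 on 10 libraries, limma on 10 libraries (added after seeing the data) and each library left out. Correlations, ranks per kilobase, counts of non-overlapping populations and marker sums were not recomputed. The number of members called across the 4 populations was 2, 1 without the variance trend and in limma on 10 libraries, and 3 with quantile normalisation, edgeR and DESeq2, the last without Peg3 (1 to 2 with a library left out). For sub against neg it was 1, and 0 with no filter, equal totals, the replicate block, no variance trend, only the 2 populations, edgeR or limma on 10 libraries (0 to 1); the 1 member called by DESeq2 was Rian, not Peg3. For low against neg it was 1, and 2 with pseudocount 5, a mean of at least 100, quantile normalisation, edgeR or limma on 10 libraries, 3 in DESeq2 and 0 with only the 2 populations (1 to 2). For high against neg it was 2, 1 in limma on 10 libraries, and 3 with pseudocount 5, a mean of at least 100, quantile normalisation, DESeq2 or only the 2 populations (1 to 3). For low against sub it was 0, and 2 in DESeq2 (0 with any library left out). For high against sub it was 1, 0 with quantile normalisation, the replicate block, only the 2 populations or limma on 10 libraries, and 2 in DESeq2 (0 to 1). For high against low it was 0, and 2 in DESeq2 (0 with any library left out). The cause of these changes was not tested.

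Over all tested genes, calls numbered 682 across the 4 populations (398 to 858 over the alternatives), 192 in sub against neg (38 to 1645), 757 in low against neg (302 to 1875), 757 in high against neg (383 to 1845), 120 in low against sub (12 to 1499), 159 in high against sub (29 to 1506) and 0 in high against low (0 to 678). In each of these 7 the highest count was that of DESeq2, so its larger numbers of members called stand beside more calls over all genes. In low against neg, where the members called rose from 1 to 2, all genes called numbered 820 with pseudocount 5, 872 with a mean of at least 100, 779 with quantile normalisation, 731 in edgeR and 623 in limma on 10 libraries. For the 31 gene differences that the report gives, under these alternatives, 653 values kept their side of the threshold, 67 lost it, 23 gained it and 1 reversed, Meg3 in sub against neg, -0.30 without neg 1 (-0.30 to 1.18 with a library left out). Over all 48 differences of the tested members 10 changed sign in at least 1 alternative: besides Meg3, Igf2 in low against neg, Rian in low and high against sub, Cdkn1c in sub against neg, Plagl1 in high against neg, and Grb10 in sub against neg, low against sub, high against sub and high against low. None of these 10 passed in limma. Quantile normalisation moved the median of all genes from 0.13 to 0.00 in high against neg and from 0.20 to 0.04 in high against sub.

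Of 18 pairs of libraries with the same replicate number 0 exceeded a correlation of 0.1 (-0.0161 to 0.0266). The numbers were not used as pairs in the main fit. The mean of the same-number pairs was 0.00881 against -0.00439 for other pairs. Of 12 libraries, 8 correlated best with their own number, which goes with a shared tag in the labels whose meaning is not stated. Correlations of this size do not show whether such libraries came from the same animal. With the replicate block the calls of Peg3 in sub against neg (adjusted p 0.0541) and of Meg3 in high against sub (0.0534, limma) were lost. The 3 libraries per population limit all of these results. Members at 0 in a library have fitted differences that depend on the pseudocount.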
